A study of Homo sapiens with 4 samples.

Results

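Oxidative phosphorylation subunits that are encoded in the nucleus were followed in SK-LMS-1 cells exposed to 2-D08. Members were the 82 of 19381 listed genes whose symbols carry the subunit stems of complexes I, III, IV or V, with assembly factors, the inhibitory factor of ATP synthase and the genes of its c ring left out. Of the 82, 80 are subunit or subunit-like genes, of which 37 were grouped with complex I, 9 with complex III, 19 with complex IV and 15 with complex V. The other 2 are readthrough loci that join a subunit gene to its neighbour. NDUFA4 and its paralog NDUFA4L2 bear complex I names but were grouped with complex IV, where the NDUFA4 protein is now placed. Paralogs expressed in restricted tissues and a retrocopy were kept in these counts.

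SK-LMS-1 is an established human line, labelled as uterine leiomyosarcoma, a malignant tumour of smooth muscle. RNA was sequenced from 2 libraries of cells given 2-D08 at 50 µM for 48 h and from 2 libraries of untreated cells. 2-D08 is a synthetic flavone used to block the conjugation of the modifier SUMO to proteins. No vehicle is named for the untreated cells, all libraries come from one line, and nothing says that libraries of a group were separate cultures. The p-values therefore rest on how far these libraries spread, and that spread may be technical.

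The respiratory chain of the inner mitochondrial membrane takes electrons from NADH at complex I, passes them through ubiquinone to complex III and through cytochrome c to complex IV, where oxygen is reduced. Complexes I, III and IV pump protons, and complex V, the ATP synthase, uses the returning protons to make ATP. Each is assembled from a core that carries the chemistry and from accessory subunits that stabilise it, and all 4 hold subunits encoded in mitochondrial DNA, which are not analysed here. Many tumour cells rely heavily on glycolysis but still transcribe the nuclear genes of these complexes.

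Library totals were 14796702 and 31300635 counts in 2-D08 cells and 29586475 and 16628710 in untreated cells. Counts of the members were even in 41% and 87.3% of cases in 2-D08 replicates 1 and 2, against 83.3% and 55.8% in untreated replicates 1 and 2. With every count of 2-D08 replicate 2 and untreated replicate 1 halved and rounded, all 8 subunit calls were kept and UQCRH was added. That was 11.8% of the members, where 34.1% of all genes were called. A chi-square test between replicates gave 13.9 per degree of freedom in 2-D08 cells and 4.67 in untreated cells, so the 2-D08 pair stood further apart. Of 8 smooth muscle markers, DES was at 0 in all libraries and MYOCD at 0 in the untreated ones, while CALD1 averaged 484 CPM in 2-D08 cells and 661 CPM in untreated cells. CPM are counts scaled to library size, here after TMM normalization. Of 6 tested smooth muscle markers 1 was higher and 3 were lower in 2-D08 cells, and the list summed to 658 to 699 CPM in 2-D08 cells and 800 to 826 CPM in untreated cells. Striated muscle markers summed to 10.9 to 12.3 CPM against 10.8 to 11.8 CPM, mostly from TNNT1. Epithelial ones summed to 203 to 237 against 232 to 261 CPM, mostly from KRT18, while EPCAM lay at 0.48 to 0.81 CPM over all libraries. Endothelial ones summed to 1.93 to 2.08 against 1.28 to 1.57 CPM. Immune markers summed to 98.5 to 99.4 CPM in 2-D08 cells and 62.0 to 66.5 CPM in untreated cells, mostly from CD68. The part of these shifts in the subunit values was not tested.

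Most subunit genes differed little between 2-D08 and untreated cells. Of 76 members with enough reads to test, 2 were higher and 6 lower in 2-D08 cells, where 33.9% of all 12906 tested genes were called at an adjusted p under 0.05 (edgeR quasi-likelihood test, Benjamini-Hochberg adjustment). The members' share was 10.5%. Taken by direction, 17.1% of all tested genes were higher and 16.9% lower. Their median log2 fold change was 0.01 among the members, against -0.003 over all tested genes. CPM values did not overlap between the groups for 16 members that were higher and 13 that were lower in 2-D08 cells, while 67.5% of all tested genes had groups that did not overlap, 33.8% higher and 33.7% lower. The lower genes included NDUFV1 and NDUFS1 of complex I, UQCRC2 and UQCRC1 of complex III and ATP5F1A of complex V. NDUFC2 of complex I and NDUFA4 of complex IV were higher. In bulk RNA a smaller share of cells that express a gene cannot be told apart from less of its RNA per cell.

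A missed threshold does not show that a gene stayed the same, but its interval gives a range for the change in this fit. Of the 66 tested subunit genes that were not called, 64 had a 95% interval of the log2 fold change inside a 2-fold change, and 61 had one inside 1.5-fold. Both genes with wider intervals, NDUFA4L2 and COX7A1, had mean levels under 1 CPM in both groups. Of the 63 uncalled genes with at least 5 CPM in both groups, log2 fold changes ran from -0.34 to 0.30, and the lowest, that of ATP5F1D, was -0.64 without 2-D08 replicate 1. The 6 members that were not tested had 0 to 3 counts in every library.

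**Figure D1:**
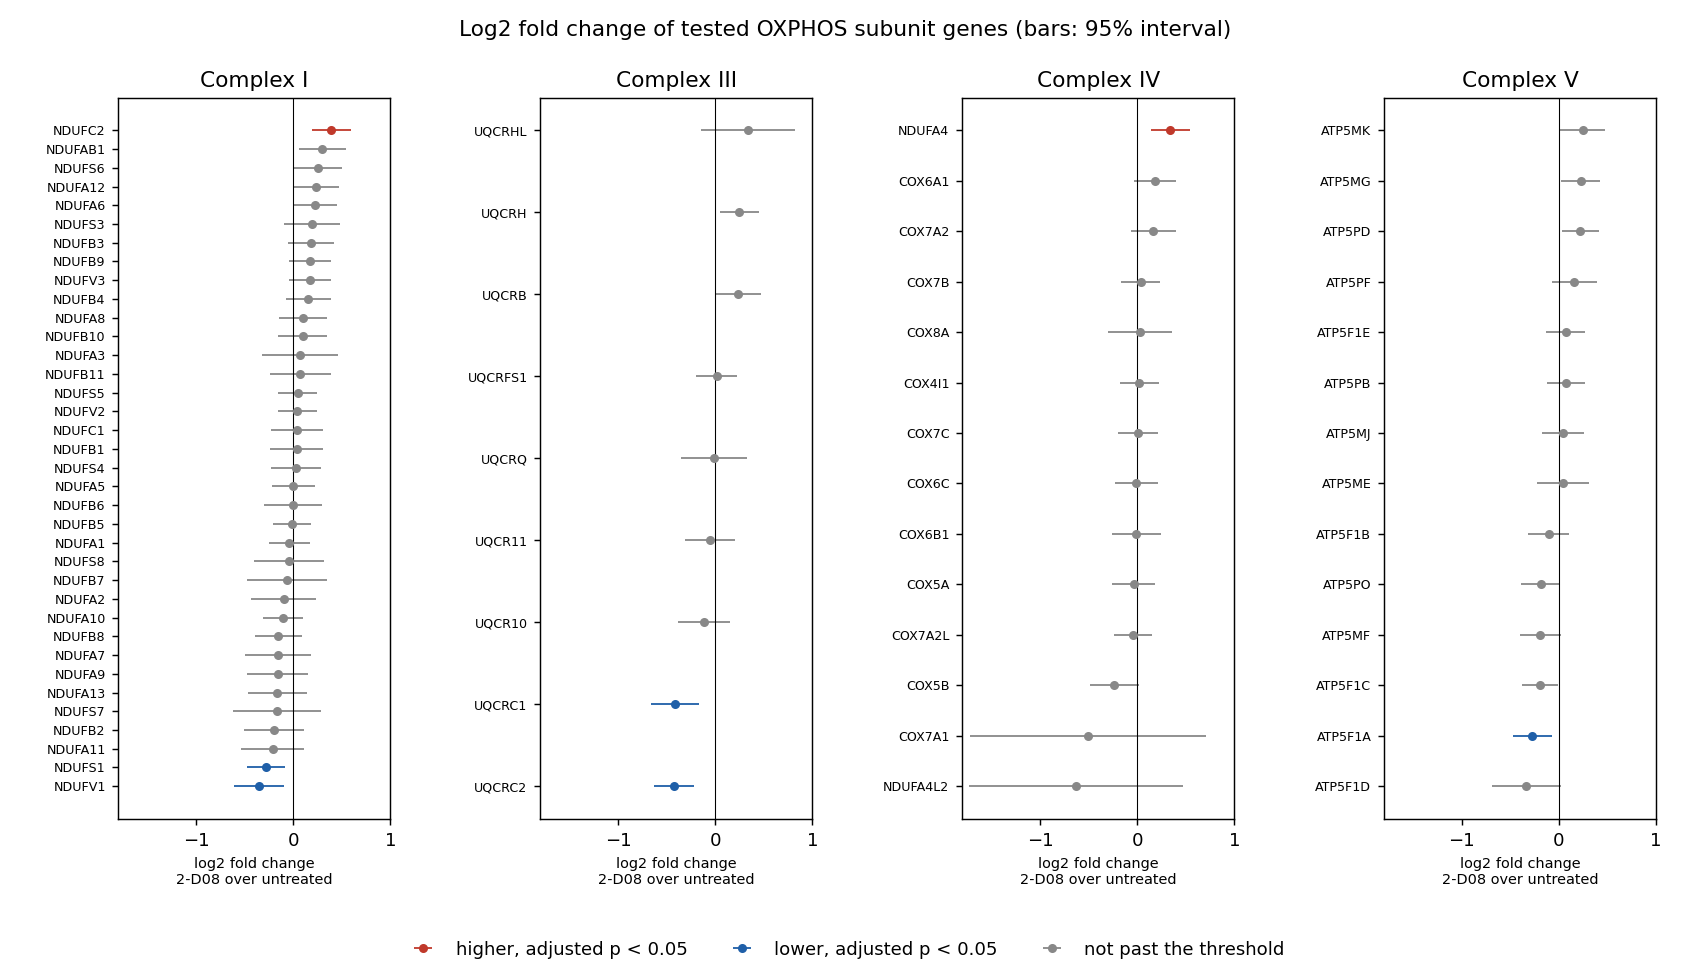
Log2 fold change (2-D08 over untreated) of 73 tested subunit genes, by complex, with 95% intervals as bars. The 5 genes shown as lower lie at -0.42 to -0.27 and the 2 called higher at 0.34 and 0.39, and the wide bars of complex IV belong to COX7A1 and NDUFA4L2.

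Summed over the 80 subunit genes, deposited TPM (abundance scaled for transcript length and depth) came to 13064 and 11449 in 2-D08 libraries and to 12900 and 12392 in untreated ones. This was 1.76% and 1.6% of all listed TPM in 2-D08 cells and 1.69% and 1.66% in untreated cells. The 2-D08 replicates enclosed both untreated values. By complex, the summed TPM were 4972 and 4472 in 2-D08 cells against 4901 and 4802 in untreated cells for complex I, and 1235 and 1094 against 1201 and 1113 for complex III. Complex IV had 2853 and 2421 TPM in 2-D08 cells against 2719 and 2580 TPM in untreated cells. Complex V had 4005 and 3462 TPM in 2-D08 cells against 4080 and 3896 TPM in untreated cells. In all 4 complexes the groups overlapped.

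Complex I oxidises NADH in a matrix arm, made of an N module that takes the electrons and a Q module that hands them to ubiquinone, and pumps protons in a membrane arm. All 37 of its genes were tested, with 1 higher, 3 lower and a median log2 fold change of 0.03. The share called was 10.8%, against 33.9% of all tested genes. The 7 nuclear core subunits, which have counterparts in bacterial complex I, held all 3 lower genes. Among so few genes this share of 42.9% is not far from the 33.9% of all tested genes. Of 30 accessory genes 1 was higher and none was lower in this test, a share of 3.33%. The median log2 fold change was -0.17 for the core and 0.04 for the accessory genes, and their difference was not tested. Some alternative fits called further accessory genes. NDUFB8 was called after correction for transcript length and GC content, where 47.9% of all genes were called. NDUFA6, NDUFA11, NDUFA12, NDUFAB1 and NDUFS6 were called with replicate numbers as a block, where 48.3% of all genes were called. Others, among them NDUFA9, NDUFA13, NDUFB2 and NDUFB7, were called without 2-D08 replicate 1.

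NDUFV1, which binds the flavin and NADH at the tip of the N module, had 44.5 and 36.5 CPM in 2-D08 cells, against 54.2 and 48.4 CPM in untreated cells. The groups did not overlap, yet the 2-D08 replicates differed from each other by more than the nearest values of the 2 groups did (log2 fold change -0.35 ± 0.12 SE; edgeR adjusted p = 0.0367). NDUFS1, the large iron-sulfur protein of the same module, had 145 and 156 CPM in 2-D08 cells, against 181 and 183 CPM in untreated cells. All its 2-D08 values were lower than the untreated ones (-0.28 ± 0.09 SE; edgeR adjusted p = 0.0291).

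Of the 7 core genes 4 were not called. NDUFS7, which carries an iron-sulfur cluster near the quinone site, had 16.1 and 9.595 CPM in 2-D08 cells against 14.7 and 13.4 CPM in untreated cells, so that the 2-D08 values enclosed the untreated ones. NDUFV2, the second iron-sulfur protein at the tip, averaged 108 ± 3.88 CPM in 2-D08 cells and 105 ± 4.74 CPM in untreated cells (SD, n = 2 each). NDUFS8, a carrier of iron-sulfur clusters, averaged 15.5 ± 3.19 CPM in 2-D08 cells and 15.8 ± 0.66 CPM in untreated cells. NDUFS3, of the Q module, averaged 32.2 ± 5.34 CPM in 2-D08 cells and 28.0 ± 0.32 CPM in untreated cells, with no overlap between groups but no call. NDUFS7 was at -0.56 without 2-D08 replicate 1, where it was called as lower, and at 0.18 without 2-D08 replicate 2. NDUFS3 ran from 0.02 to 0.36 over the 16 alternatives and was called, as higher, only without 2-D08 replicate 2. The log2 fold changes over all libraries were -0.17 for NDUFS7, 0.04 for NDUFV2, -0.05 for NDUFS8 and 0.19 for NDUFS3.

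NDUFC2, an accessory subunit of the membrane arm (chromosome 11), was the highest of complex I in fold change. It had 93.8 and 90.4 CPM in 2-D08 libraries, against 71.4 and 68.8 CPM in untreated ones. Both 2-D08 libraries were above both untreated ones (log2 fold change 0.39 ± 0.09 SE; edgeR adjusted p = 0.00515). Reads of NDUFC2 can also fall on the readthrough locus NDUFC2-KCTD14, which lay at 0.875 to 1.196 CPM in 2-D08 cells and 1.09 to 1.719 CPM in untreated cells, so its own level is slightly uncertain. NDUFAB1, the mitochondrial acyl carrier protein that complex I also holds, came next at 0.30 but did not pass (edgeR adjusted p = 0.0526), though it did in 4 of the 16 alternatives, including those without either 2-D08 library. Its values were 38.9 and 38.0 CPM in 2-D08 cells against 30.5 and 32.0 CPM in untreated cells, without overlap. In the remaining 28 accessory genes, log2 fold changes ran from -0.21 to 0.26.

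**Figure D2:**
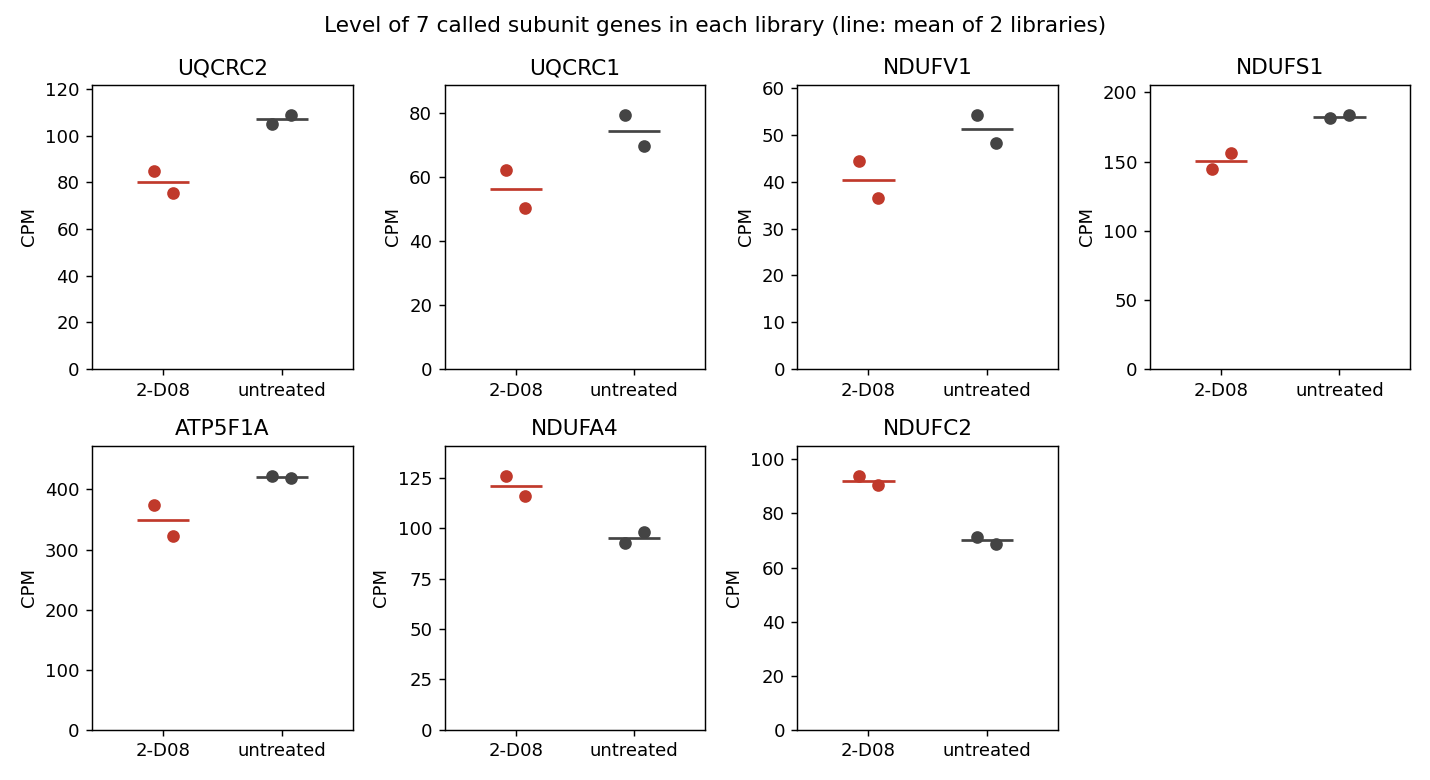
CPM of 7 subunit genes past the threshold in each library, 2-D08 on the left and untreated on the right of each panel, with the mean as a line. In none of the 7 panels do the groups overlap, and the UQCRC2 values of 84.7 and 75.3 CPM in 2-D08 cells lie below 105 and 109 CPM in untreated cells.

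Complex III passes electrons from ubiquinol to cytochrome c. Of its 9 genes, all tested, 2 were lower, none was higher in this test, and the median log2 fold change was -0.01. At 22.2% the share called was below the 33.9% of all tested genes. Both lower genes encode the large core proteins that face the matrix, relatives of the peptidase that trims mitochondrial targeting sequences. UQCRC2 had 84.7 and 75.3 CPM in 2-D08 cells, against 105 and 109 CPM in untreated cells (log2 fold change -0.42 ± 0.10 SE; edgeR adjusted p = 0.00409). UQCRC1 had 62.4 and 50.5 CPM in 2-D08 cells, against 79.4 and 69.8 CPM in untreated cells (-0.41 ± 0.12 SE; edgeR adjusted p = 0.0147). For both genes each 2-D08 library was lower than each untreated one.

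UQCRFS1, the Rieske iron-sulfur protein that carries electrons within the complex, had 92.8 and 83.9 CPM in 2-D08 cells against 91.9 and 82.3 CPM in untreated cells. Its values in the groups were interleaved, and its 95% interval ran from -0.20 to 0.23 on the log2 scale. Of the 6 small accessory genes none was called in this test. UQCRH, the hinge protein that docks cytochrome c, had 118 and 107 CPM in 2-D08 cells against 95.7 and 92.5 CPM in untreated cells, with no overlap (0.25 ± 0.09 SE; edgeR adjusted p = 0.0526). UQCRHL, a near-identical retrocopy of UQCRH, had the highest log2 fold change of the complex, 0.34 ± 0.22 (SE; edgeR adjusted p = 0.262). It lay at 5.45 and 6.22 CPM in 2-D08 cells and at 4.05 and 5.39 CPM in untreated cells, and its share of reads against UQCRH is uncertain.

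Complex IV reduces oxygen, and many of its nuclear subunits exist as a ubiquitous form and a form restricted to muscle, lung or testis. Of 19 genes 14 were tested, 1 was higher and none lower in this test, with a median log2 fold change of -0.001. This is a share of 7.14%, where 33.9% of all tested genes were called. The higher gene was NDUFA4 (chromosome 7), with 126 and 116 CPM in 2-D08 cells, against 92.6 and 98.1 CPM in untreated cells. Both 2-D08 libraries exceeded both untreated ones (0.34 ± 0.09 SE; edgeR adjusted p = 0.0118). Of the 11 ubiquitous subunit genes the other 10 were not called, and all 11 had intervals inside a 1.5-fold change. COX4I1, the ubiquitous form of the regulatory subunit 4, had 138 and 125 CPM in 2-D08 cells against 126 and 132 CPM in untreated cells, so the 2-D08 values enclosed the untreated ones.

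Ubiquitous and restricted forms differed far more from each other than 2-D08 from untreated cells did. On the TPM scale, which allows genes to be compared, COX4I1 had 313 and 265 TPM in 2-D08 cells and 298 and 297 TPM in untreated cells. COX4I2, the paralog known from lung and induced by low oxygen, had 2 counts in 2-D08 replicate 2 and 0 in the other libraries. COX6A1 had 338 and 273 TPM in 2-D08 cells and 300 and 271 TPM in untreated cells, while COX6A2, the heart and skeletal muscle form, had 0 counts in all libraries.

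COX8A had 134 and 89.7 TPM in 2-D08 cells and 118 and 113 TPM in untreated cells, and the testis form COX8C had 0 counts in all libraries. A count of 0 allows up to 3 counts, which is 0.199 and 0.0972 CPM in the 2-D08 libraries and 0.101 and 0.182 CPM in the untreated ones, for counting error only. COX6B1 had 280 and 208 TPM in 2-D08 cells and 273 and 247 TPM in untreated cells, against 0.04 to 0.19 TPM over all libraries for its testis form COX6B2. COX7B had 261 and 298 TPM in 2-D08 cells and 269 and 249 TPM in untreated cells, and COX7B2 had 2 counts in untreated replicate 1 alone.

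COX7A2 had 346 and 272 TPM in 2-D08 cells and 314 and 267 TPM in untreated cells. COX7A2L, whose product holds complexes III and IV together in supercomplexes, had 177 and 162 TPM in 2-D08 cells and 182 and 184 TPM in untreated cells. COX7A1, the muscle form, was low and uneven, with 8.37 and 2.56 TPM in 2-D08 cells and 11.2 and 4.91 TPM in untreated cells. NDUFA4 had 143 and 130 TPM in 2-D08 cells and 96.9 and 111 TPM in untreated cells. Its paralog NDUFA4L2, known to be induced by low oxygen, had 0.87 and 0.67 TPM in 2-D08 cells and 0.95 and 1.62 TPM in untreated cells. NDUFA4L2 also had the lowest log2 fold change of the complex, -0.62 ± 0.51 (SE; edgeR adjusted p = 0.372), from 9 to 20 counts per library.

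**Figure D3:**
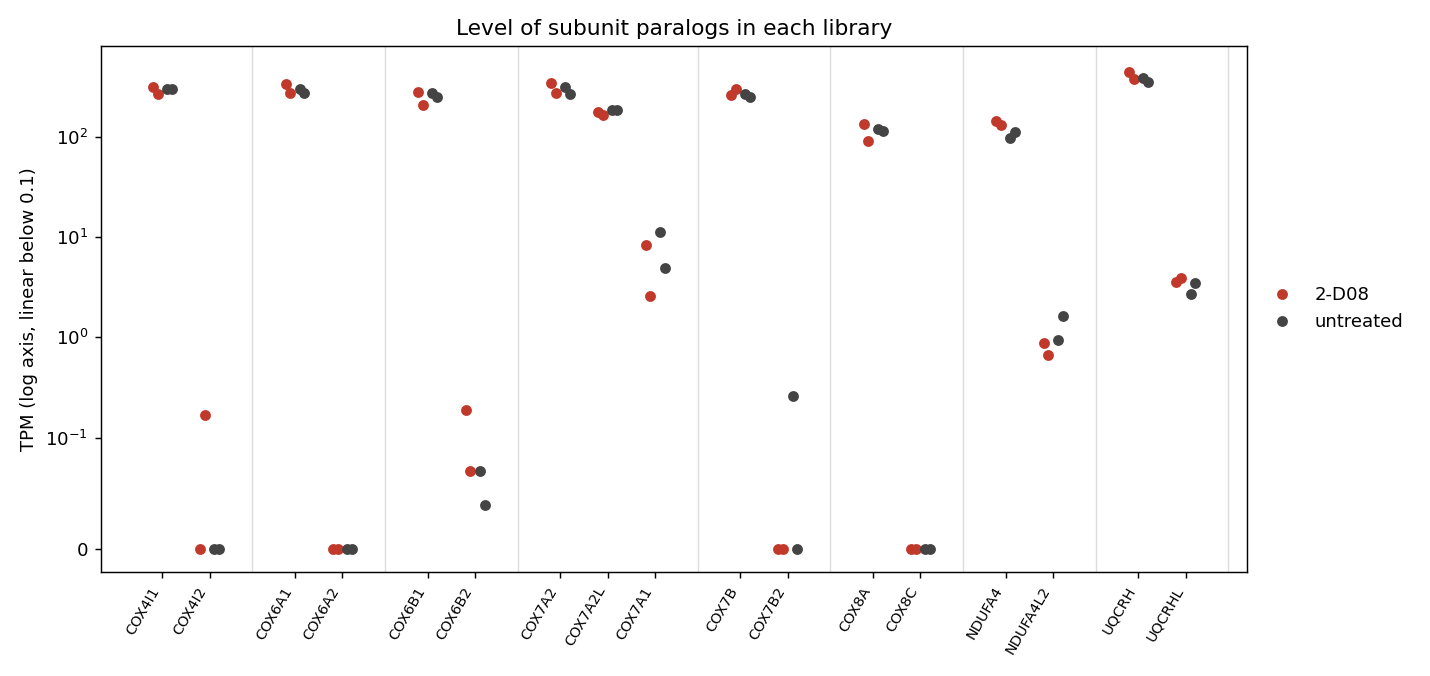
Deposited TPM of subunit paralogs in each library on a log axis that is linear below 0.1, 2-D08 left of untreated for each gene. The ubiquitous forms, COX7A2L and UQCRH lie between 89.7 and 443 TPM, and the restricted forms and the copies NDUFA4L2 and UQCRHL between 0 and 11.2 TPM.

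Complex V makes ATP in a catalytic head, F1, which a peripheral stalk ties to the membrane part. Of 15 genes 14 were tested, 1 was lower and none higher in this test, and the median log2 fold change was 0.04. The share called was 7.14%, against 33.9% of all tested genes. ATP5F1A, the alpha subunit of the head (chromosome 18), had 374 and 323 CPM in 2-D08 cells, against 422 and 420 CPM in untreated cells. Both 2-D08 libraries were below the untreated ones but differed among themselves by more than the untreated ones did (-0.27 ± 0.09 SE; edgeR adjusted p = 0.0376).

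The rest of the F1 head did not pass. ATP5F1B, the catalytic beta subunit and with 435 TPM in 2-D08 cells and 487 TPM in untreated cells the most abundant of the head, had 518 and 438 CPM in 2-D08 cells against 528 and 500 CPM in untreated cells. Its groups overlapped. ATP5F1C, the gamma subunit that rotates in the head, had 116 and 116 CPM in 2-D08 cells against 135 and 130 CPM in untreated cells, without overlap (-0.20 ± 0.09 SE; edgeR adjusted p = 0.104). Over the 16 alternatives ATP5F1C ran from -0.34 to -0.17 and was called in 3, among them the correction for length and GC content. ATP5F1D, the delta subunit, had 27.3 and 18.4 CPM in 2-D08 cells against 29.8 and 26.9 CPM in untreated cells, with overlap, and the lowest log2 fold change of the complex (-0.34 ± 0.16 SE; edgeR adjusted p = 0.129). It rested on 1 library, being at -0.64 without 2-D08 replicate 1, where it was called (edgeR adjusted p = 2.02e-05), and at -0.07 without 2-D08 replicate 2 (adjusted p = 0.746). ATP5F1E, the epsilon subunit, averaged 127 ± 9.31 CPM in 2-D08 cells and 121 ± 0.07 CPM in untreated cells (SD, n = 2 each).

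Of the 4 peripheral stalk genes, ATP5PB, ATP5PD, ATP5PF and ATP5PO, none was called in this test, with log2 fold changes of -0.19 to 0.22. The 5 tested membrane subunit genes ran from -0.19 in ATP5MF to 0.24 in ATP5MK. ATP5MK, a small subunit that helps ATP synthase form dimers, had 74.5 and 62.3 CPM in 2-D08 cells against 56.5 and 58.6 CPM in untreated cells, without overlap (0.24 ± 0.11 SE; edgeR adjusted p = 0.097). ATP5MGL, a copy of ATP5MG, had 2 counts in each 2-D08 library and 0 in the untreated ones, too few to compare.

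Leaving out a library moved these counts, where a lone library of a group is assumed to vary like the other group. Without untreated replicate 1, 2 members (2.63%) were called where 14.4% of all genes were, UQCRC2 among them, and NDUFS1, NDUFV1, NDUFC2, UQCRC1, NDUFA4 and ATP5F1A lost their calls. Without untreated replicate 2, 2 members (2.63%) were called where 19.9% of all genes were, UQCRC1 among them, and UQCRC2 lost its call with NDUFS1, NDUFV1, NDUFC2, NDUFA4 and ATP5F1A. Without 2-D08 replicate 1, 8 members were higher and 19 lower, against 9 higher and 4 lower without 2-D08 replicate 2, where 36.7% of all genes were called and NDUFV1 (-0.22, edgeR adjusted p = 0.137) and ATP5F1A (-0.18, adjusted p = 0.065) lost their calls. The members called made up 35.5% without 2-D08 replicate 1, where 45.2% of all genes were called, and 17.1% without 2-D08 replicate 2, so the members' share was below that of all genes in each of these 4 fits. UQCRC1 was at -0.57 without 2-D08 replicate 1 and at -0.27 without 2-D08 replicate 2, called in both. For complex V taken alone, the share called without 2-D08 replicate 1 was not below that of all genes. The median log2 fold change of the members was -0.06 without 2-D08 replicate 1 and 0.08 without 2-D08 replicate 2. Scaling by library size alone gave 3 higher and 5 lower members, with NDUFV1 lost (edgeR adjusted p = 0.059) and ATP5PD added. These were 10.5% of the members, where 32.6% of all genes were called. Correcting each library for the length and GC content of transcripts gave 2 higher and 13 lower members. That was 19.7% of the members, where 47.9% of all genes were called. NDUFS1, NDUFV1, UQCRC2, UQCRC1, ATP5F1A, NDUFC2 and NDUFA4 all kept their calls after that correction, NDUFA4 with a smaller log2 fold change of 0.19 (edgeR adjusted p = 0.0458). On the log2(TPM + 1) scale UQCRC2 was at -0.23 and not called (limma adjusted p = 0.209), and NDUFS1 was at -0.48 and called. Each of these 7 genes lost its call in at least 2 of the 16 alternatives.

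The distance between the 2-D08 replicates varied with base composition. Across 71 subunit genes with at least 5 CPM in untreated cells, the log2 ratio of 2-D08 replicate 2 to replicate 1 ran from -0.74 to 0.33 and correlated with the GC content of the transcript at Pearson's r of -0.63 and Spearman's rho of -0.55. The same ratio in untreated cells ran from -0.30 to 0.27, with r of -0.47 and rho of -0.46. These points share the same pairs of libraries and are not independent. The log2 fold change between groups correlated with GC content at r of -0.35 and rho of -0.31. In the 15 genes with 55% GC or more, the median replicate ratio was -0.33 in 2-D08 cells and -0.09 in untreated cells, and the median log2 fold change was -0.07. In the 21 genes under 45% GC these medians were -0.08, 0.08 and 0.04. NDUFV1 (59.4% GC) and UQCRC1 (59.5% GC) belong to the first of these groups, and UQCRC2 (45.5%), ATP5F1A (45.7%) and NDUFS1 (42.1%) do not.

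**Figure D4:**
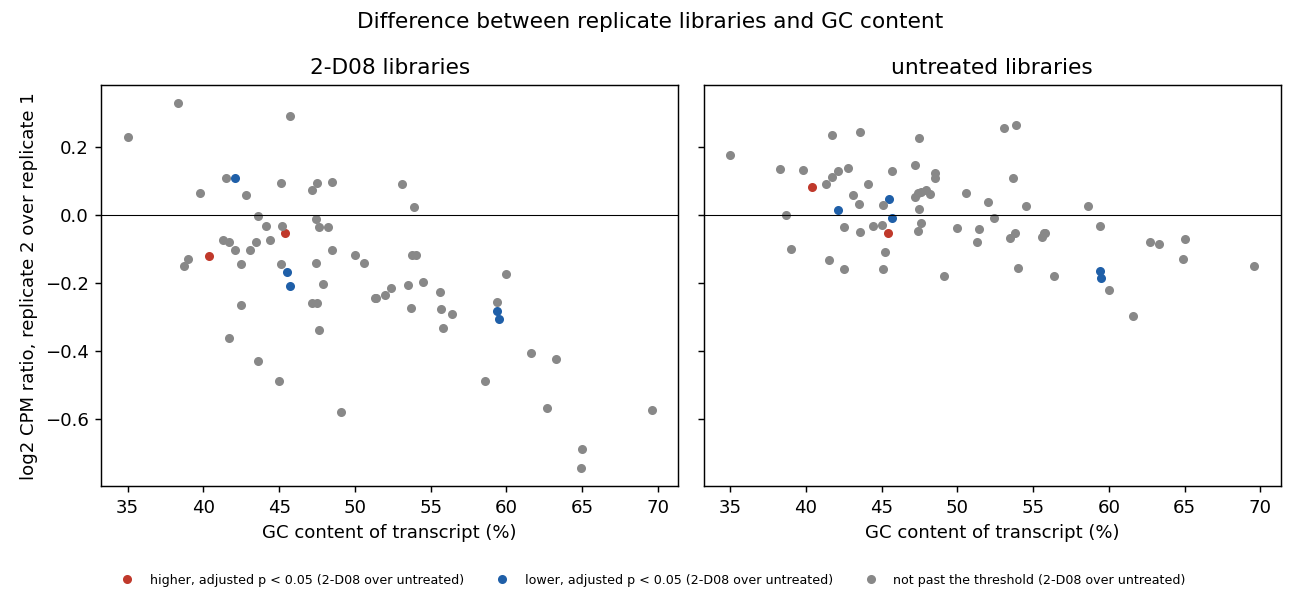
Log2 CPM ratio of replicate 2 to replicate 1 against the GC content of the longest coding transcript for 70 subunit genes, 2-D08 libraries on the left and untreated ones on the right, with genes called between groups coloured. The ratio falls to -0.74 among GC-rich genes in the 2-D08 pair and to -0.30 in the untreated pair.

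Promoters of nuclear respiratory genes are known for sites of NRF1, the ETS factor GABP and YY1. RefSeq promoter windows (GRCh38.p14, 250 bases before to 50 after the start) matched 66 of the 80 subunit genes. The ETS letters CCGGAAG, searched on both strands like all motifs here, stood in 18 of 66 windows (27.3%), against 10.7% of 27305 RefSeq windows. Those 27305 windows exceed the 19381 listed genes and were not matched to the members for expression. The YY1 letters AAGATGGC stood in 10 windows (15.2% against 3.03%) and the NRF1 motif, a palindrome of 10 letters, in 3 (4.55% against 1.36%). The E-box CACGTG stood in 6 (9.09% against 7.43%) and the ERR letters TCAAGGTCA in 0 (against 0.359%). The ETS and YY1 letters can overlap, since one ends and the other begins in AAG. Of the 8 called genes 6 had a window, and 1 of them held the ETS letters and 1 the YY1 letters.

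The 250 bases before the start are shown for 3 genes that were lower in 2-D08 cells, the pair of core proteins of complex III and a core subunit of complex I, with ETS letters in capitals. NDUFS1 (chr2:206159445-206159694, minus strand) holds the reverse complement of the ETS letters from base -157. UQCRC1 (chr3:48609647-48609896, minus strand) has the YY1 letters from base 24 after the start, outside the stretch shown. UQCRC2 (chr16:21953111-21953360, plus strand) has none of the 5 motifs in its window.
NDUFS1: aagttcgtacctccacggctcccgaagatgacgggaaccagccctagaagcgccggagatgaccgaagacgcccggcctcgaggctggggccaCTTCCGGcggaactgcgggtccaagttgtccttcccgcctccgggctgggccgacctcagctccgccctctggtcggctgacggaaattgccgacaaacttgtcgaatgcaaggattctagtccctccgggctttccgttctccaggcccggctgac
UQCRC1: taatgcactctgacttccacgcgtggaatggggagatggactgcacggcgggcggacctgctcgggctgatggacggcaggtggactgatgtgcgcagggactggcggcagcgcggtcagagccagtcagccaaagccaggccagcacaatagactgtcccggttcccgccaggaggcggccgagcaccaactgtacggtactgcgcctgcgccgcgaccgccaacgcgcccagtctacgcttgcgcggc
UQCRC2: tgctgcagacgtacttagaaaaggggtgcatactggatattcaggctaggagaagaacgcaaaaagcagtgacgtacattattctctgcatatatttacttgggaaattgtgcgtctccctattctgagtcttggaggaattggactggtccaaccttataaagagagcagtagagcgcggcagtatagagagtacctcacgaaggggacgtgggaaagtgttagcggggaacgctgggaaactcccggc

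Genes around the 4 complexes were described from lists of complex II, the cytochromes c, the c ring and inhibitory factor, assembly factors and regulators. Of 70 such genes 69 were tested, and 13 were higher and 5 lower in 2-D08 cells, a share of 26.1% where the background was 33.9%, with a median log2 fold change of 0.02. CYCS, which encodes the cytochrome c that carries electrons between complexes III and IV and triggers caspases once released, had 587 and 609 CPM in 2-D08 cells, against 346 and 367 CPM in untreated cells. Its 2-D08 values were all above the untreated ones (0.74 ± 0.09 SE; edgeR adjusted p = 3.39e-05). CYC1, the cytochrome c1 of complex III, averaged 30.9 CPM in 2-D08 cells and 32.2 CPM in untreated cells and was not called. SDHA, the flavoprotein of complex II, had 37.8 and 31.6 CPM in 2-D08 cells, against 45.2 and 42.6 CPM in untreated cells (-0.35 ± 0.12 SE; edgeR adjusted p = 0.0357). SDHB, SDHC and SDHD were not called. Of the c ring genes, ATP5MC2 was lower (-0.36), whereas ATP5MC1 and ATP5MC3, which encode the same mature protein, were not called.

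NDUFAF4, a complex I assembly factor, had 42.1 and 44.5 CPM in 2-D08 cells, against 25.1 and 23.9 CPM in untreated cells (0.82 ± 0.11 SE; edgeR adjusted p = 0.000125). Of the 17 complex I assembly genes NDUFAF6 (0.47) was the other one called, a share of 11.8%. Of 20 complex IV assembly genes 5 were higher and 2 lower, a share of 35%. That is close to the 33.9% called over all tested genes. COX17 (0.81) and COX19 (0.76), which take part in copper delivery to complex IV, had 21.3 and 26.2 CPM and 32.1 and 32.8 CPM in 2-D08 cells, against 12.5 and 14.9 CPM and 18.3 and 20.2 CPM in untreated cells. SCO1, a copper chaperone (0.32), COA7 (0.50) and PET117 (0.46) were also higher, and COX18, which inserts a mitochondrially encoded subunit (-0.49), and COA5 (-0.38) were lower. LYRM7, which matures the Rieske protein of complex III, was higher (0.32). For complex V, TMEM70 was higher (0.45) and ATPAF2, a chaperone of the alpha subunit, was lower (-0.53).

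Of 12 regulators 11 were tested, 3 were higher and none was lower in this test. This was 27.3% of those tested, where 33.9% of all tested genes were called. TFAM, which packages and transcribes mitochondrial DNA, averaged 149 ± 11.2 CPM in 2-D08 cells and 115 ± 10 CPM in untreated cells (SD, n = 2 each; log2 fold change 0.38 ± 0.10 SE; edgeR adjusted p = 0.00858). GABPB1, a subunit of GABP (0.48), and PPRC1, a coactivator of the PGC-1 family (0.33), were the others. NRF1 (0.13), GABPA (-0.12) and YY1 (0.15) were not called. PPARGC1A, the PGC-1 alpha coactivator, had 4 and 18 counts in 2-D08 cells and 2 and 2 counts in untreated cells and was not tested. Across the 16 alternative settings, CYCS, NDUFAF4, COX17 and COX19 kept their calls in every one, and the other 14 called genes of these lists lost theirs in 2 to 8 settings. In these lists 5 genes were called without untreated replicate 1, 8 without untreated replicate 2, 33 without 2-D08 replicate 1 and 17 without 2-D08 replicate 2, in fits that called 14.4%, 19.9%, 45.2% and 36.7% of all genes in the same order.

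**Figure D5:**
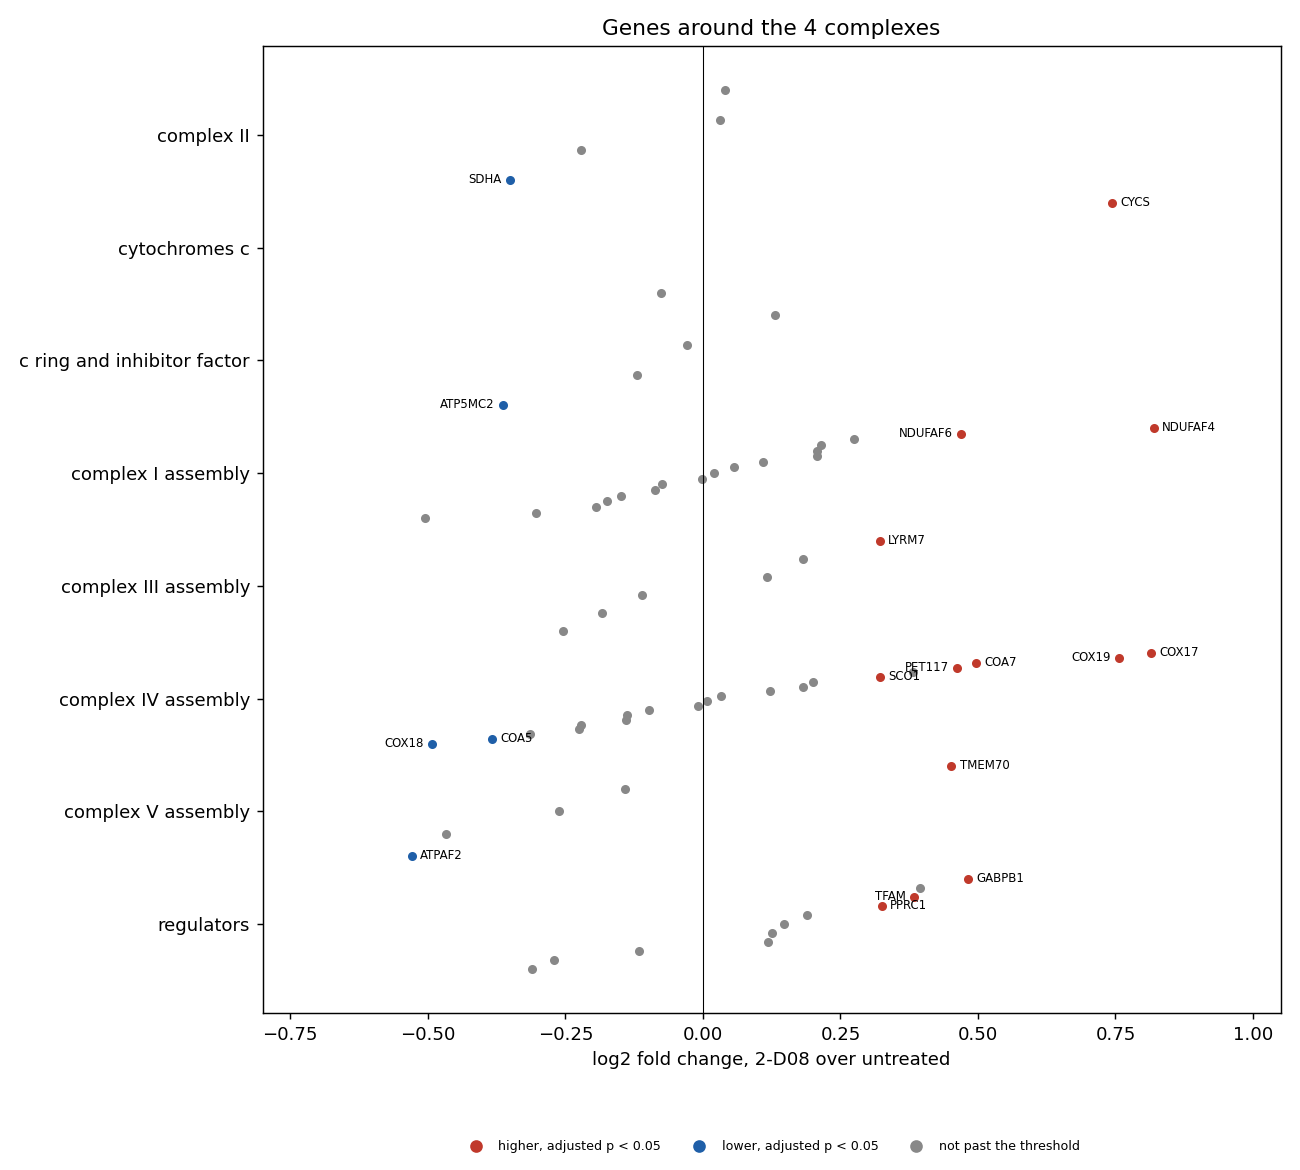
Log2 fold change (2-D08 over untreated) of 69 tested genes around the complexes, by list, 1 point per gene, with the 18 called genes named. NDUFAF4, COX17, COX19 and CYCS lie at 0.74 to 0.82, further from 0 than any called subunit gene in the plot of log2 fold changes by complex.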

How the data were processed

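RNA of 2 libraries per group was sequenced as total RNA depleted of ribosomal RNA, per the labels' protocols. The submitters' processing notes name cutadapt 3.4, STAR 2.7.8a, DESeq2 and the build GRCh38. No source used here names the counting tool, the strand setting or the annotation. The authors deposited raw counts per gene symbol, TPM per gene and a table of log2-like transformed values, which served as an alternative only. Table columns without a compound in their name were taken as untreated. Members and lists were chosen with earlier results of these data known.

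Genes were kept by filterByExpr (minimum count 10), scaled by TMM and tested with edgeR 4.0.16 (robust quasi-likelihood, R 4.3.3) over 12906 genes, with Benjamini-Hochberg adjustment and a threshold of 0.05. Intervals are at 95%. Limma 3.58.1 and DESeq2 1.42.0 served 5 of the 16 alternatives. A limit of 3 counts was used where a count was 0. Transcript length and GC content came from GENCODE 29, and coordinates and promoters from RefSeq (GRCh38.p14), where all 82 members were found. Values per library are given for called members, for the highest and lowest log2 fold change in each complex and for isoform pairs. One called member is counted but not reported here by name or value. Called genes of the other lists are named. The other core, catalytic and head subunits and NDUFAB1 were added after their values were seen. The fit was also run on simulated counts with the same dispersion for all genes and far fewer changed genes than were called here. That run does not measure its error rate in these data. Named pseudogenes exist in RefSeq for 44 of the 74 tested subunit genes, among the called ones for ATP5F1A, NDUFA4 and UQCRC2, and reads may be split with them.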

Additional observations from a re-analysis of the deposited data

How the results depend on the processing

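Of the 16 alternatives 15 were planned and the deposited transformed values were added after seeing the data. Over 23 named members, 300 of 367 values kept direction and side of the threshold, 28 lost it, 20 gained it and 19 reversed, none of the last in a called gene. Over 18 named list genes, 222 of 288 values kept both and 66 lost the threshold.

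Replicate numbers correlated at 0.157 (deviations from group means over 12906 genes) and are not stated to pair samples. A replicate block called 6239 genes (48.3%), and 12 members higher and 12 lower (31.6%). These were 9 of 37 tested genes in complex I, 4 of 9 in III, 3 of 14 in IV and 8 of 14 in V. In complex V that share was above the share over all genes. The block also called 29 list genes. Limma on log2(TPM + 1) and log2(TPM + 0.1) called 1695 and 1712 genes (13.1% and 13.3%). In both, 0 members were higher and 2 lower (2.63%), with 2 in complex I, 0 in III, IV and V and 6 list genes. With the length and GC trend removed, 6185 genes (47.9%), 13 lower members, 2 of complex IV, 5 of complex V and 35 list genes were called. Library size alone gave 2 in complex V, where 32.6% of all genes were called. DESeq2 gave 12 list genes, where 27.8% of all genes were called, with NDUFV1 lost (DESeq2 adjusted p = 0.0536). Without 1 library, the calls ran from 1866 to 6077 genes, 0 to 9 members higher, 2 to 19 lower, 1 to 14 in complex I, 1 to 4 in III, 0 to 3 in IV, 0 to 7 in V and 5 to 33 list genes. The cause was not tested.

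Reversed values were those of 6 genes not called over all libraries, of which NDUFS7 and ATP5F1B were called without 2-D08 replicate 1, and ATP5F1B also with the length and GC trend removed. On both TPM scales ATP5F1E was at -0.002, NDUFV2 at -0.014 and UQCRFS1 at -0.034 and -0.035. With the trend removed ATP5F1E was at -0.067, NDUFS7 at 0.001, NDUFS8 at 0.067, NDUFV2 at -0.133 and UQCRFS1 at -0.070. Without 1 library ATP5F1B ran from -0.235 to 0.007, ATP5F1E from -0.009 to 0.139, NDUFS7 from -0.561 to 0.181, NDUFS8 from -0.262 to 0.159, NDUFV2 from -0.002 to 0.086 and UQCRFS1 from -0.062 to 0.102.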
